A study of Mus musculus with 2 samples.

Results

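The genes that copy DNA in S phase were examined in mouse colon epithelial cells kept with MIF or with PBS. The set was a list of 49 genes that encode the replication machinery and the switch into S phase. A gene was represented by probe sets whose platform annotation carried its symbol alone, and by the one with the highest mean log2 signal where there were several. Of the 49 genes, 47 were found, on 79 probe sets, among 8721 named genes on 14049 probe sets. Gins2 and Chaf1a had no such probe set in the table used here.

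The cells came from 7-week-old mice of the inbred strain C57BL/6. One preparation had been incubated with PBS, a buffered salt solution, and the other with MIF. The labels do not spell out MIF, which is read here as the cytokine macrophage migration inhibitory factor, a ligand of CD74 at the cell surface. Total RNA of each was hybridised to 1 Affymetrix array, so each group has 1 sample, no spread between samples could be measured and no difference was tested. The sources used here do not give the dose of MIF, the length of the incubation, how many animals were used or how the epithelium was taken.

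DNA replication starts at origins that are bound by the origin recognition complex, where Cdc6 and Cdt1 load the MCM helicase before S phase. Cyclin-dependent kinases then fire the origins, the helicase unwinds DNA, and polymerases held by the PCNA clamp copy both strands. In the colon, dividing cells sit in the lower part of the crypt and their daughters stop cycling as they move up. Many replication genes are transcribed under control of the E2F factors as cells pass from G1 into S phase. Mitosis genes are expressed later, in G2 and M phase, through the CHR promoter element and the CCAAT box bound by NF-Y.

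Promoter sequences are shown for the members with the largest differences between the arrays, at least 0.322 in size on the log2 scale (Mcm6, Mcm10, Lig1 and Orc4), for Mcm5 as an MCM gene whose signals were close, and for the mitosis gene Cdc20 as a contrast. Each is the stretch of 160 bases just before a transcription start in the RefSeq promoter table, build GRCm38.p6, 5′ to 3′ on the strand of the gene. Capitals mark the letters of 3 motifs on either strand. The E2F motif was searched as TTTGGCGC, TTTCCCGC, TTTCGCGC and TTTGCCGC, the CHR as TTTGAA and the CCAAT box as CCAAT.
Mcm6: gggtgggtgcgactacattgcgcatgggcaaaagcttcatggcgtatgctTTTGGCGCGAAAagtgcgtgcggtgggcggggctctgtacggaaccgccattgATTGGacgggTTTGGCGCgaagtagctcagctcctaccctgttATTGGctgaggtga
Mcm5: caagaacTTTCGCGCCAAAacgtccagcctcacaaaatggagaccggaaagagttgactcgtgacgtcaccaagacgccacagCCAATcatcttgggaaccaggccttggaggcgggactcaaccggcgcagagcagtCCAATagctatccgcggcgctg
Mcm10: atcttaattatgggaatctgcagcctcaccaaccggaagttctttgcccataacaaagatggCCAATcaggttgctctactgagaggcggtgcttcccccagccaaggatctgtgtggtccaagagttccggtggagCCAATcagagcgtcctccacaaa
Lig1: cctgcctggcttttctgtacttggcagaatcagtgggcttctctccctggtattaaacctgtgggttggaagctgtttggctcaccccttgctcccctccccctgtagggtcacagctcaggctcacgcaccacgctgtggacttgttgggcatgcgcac
Orc4: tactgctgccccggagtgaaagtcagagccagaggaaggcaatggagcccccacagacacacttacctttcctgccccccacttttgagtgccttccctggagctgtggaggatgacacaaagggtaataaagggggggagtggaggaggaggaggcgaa
Cdc20: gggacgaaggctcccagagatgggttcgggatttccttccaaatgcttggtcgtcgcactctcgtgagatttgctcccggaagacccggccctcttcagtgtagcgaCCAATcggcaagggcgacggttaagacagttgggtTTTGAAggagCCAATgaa

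These stretches lie at chr1:128359706-128359865 (minus strand) for Mcm6, chr8:75109349-75109508 (plus strand) for Mcm5, chr2:5012792-5012951 (minus strand) for Mcm10, chr7:13277015-13277174 (plus strand) for Lig1, chr2:48950082-48950241 (minus strand) for Orc4 and chr4:118437344-118437503 (minus strand) for Cdc20. Mcm6 held E2F letters at 110, 106 and 47 bases before the start, counted to the first letter of each match. The pair at 110 and 106 overlapped on opposite strands. Mcm5 held an overlapping pair of the same kind at 153 and 149. Mcm10 held CCAAT boxes and no E2F letters. Cdc20 held the CHR at 18 bases before its start, between 2 CCAAT boxes. Lig1 and Orc4 each have 3 listed starts, and the first listed is shown. It held none of the letters for either gene. Another start of Lig1 had E2F letters in its window, and another start of Orc4 had CCAAT letters.

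Over the whole window of 300 bases (250 before the start and 50 after it), 40 members had an entry, with 49 starts. E2F letters were present at 13 of these 49 starts (26.5%) against 2.26% of all 32851 starts in the table. CHR letters were present at 4 of the 49 (8.16%) against 17.9% of all. CCAAT letters were present at 28 (57.1%) against 37.4%. The mitosis genes had E2F letters at 1 of 35 starts (2.86%), CHR letters at 25 (71.4%) and CCAAT letters at 27 (77.1%). The CHR share lay below that of all starts in the members and above it in the mitosis genes. In the other replication genes, a further list described below, the CHR share also lay above that of all starts. A low CHR share was therefore not common to both lists, of which the further one also holds cell cycle regulators. The CCAAT share lay above that of all starts in each of these lists. Over all windows, 5 matches of the E2F letters overlapped letters of another motif. A match of letters is a description of the sequence and does not show that a factor binds there.

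**Figure D1:**
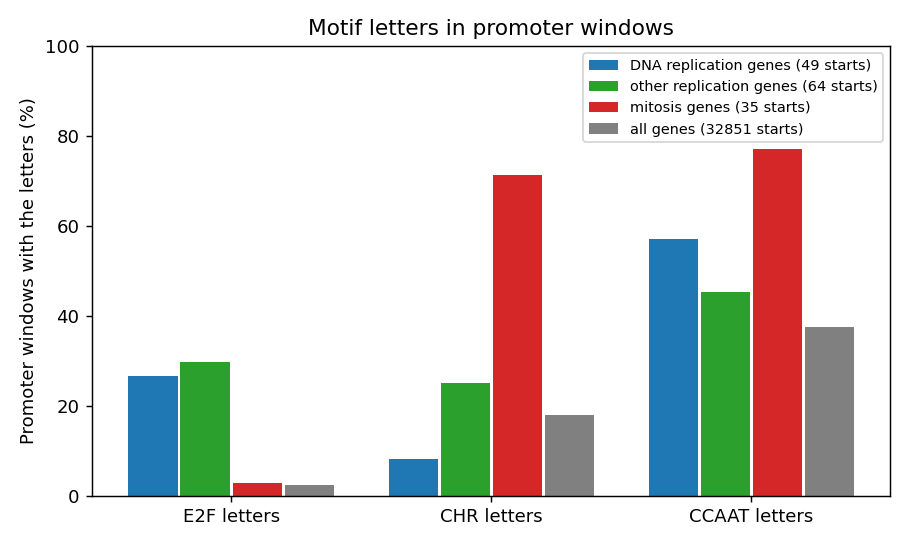
Percent of promoter windows (y axis) that hold the letters of the E2F, CHR and CCAAT motifs, in the DNA replication genes, the other replication genes, the mitosis genes and all genes of the promoter table. E2F letters stand at 26.5% of starts of the DNA replication genes and 2.86% of starts of the mitosis genes, and CHR letters at 8.16% and 71.4%.

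Most replication genes differed little between the arrays. Values are the authors' deposited signals on a linear scale. Signals under 232, the 40th percentile of all signals, were raised to that floor before differences were taken. Of the 47 members, 32 lay above the floor on both arrays, 3 (Pola1, Pola2 and Pold1) on the PBS array alone, and 12 on neither. The 12 that could not be assessed were Orc1, Orc2, Orc6, Cdc6, Cdc45, Prim2, Pole, Tyms, Ccne1, Ccne2, E2f1 and Chaf1b.

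Over the 35 members that passed the floor on at least 1 array, the median log2 difference (MIF minus PBS) was -0.05, beside -0.01 over all 5837 assessed genes. In all, 23 of the 35 (65.7%) were lower on the MIF array by any amount, against 53.3% of all assessed genes. These include Pola1, Pola2 and Pold1, which could only come out lower, and 20 of the other 32. A log2 difference of 0.322 in size was taken as the threshold. By it 3 members were lower (8.57%, background 3.53%) and 1 was higher (2.86%, background 4.56%). After quantile normalization these counts were 3 and 0, with backgrounds of 4.29% and 3.72%. Without a floor, 7 of the 47 members were lower by that much and 3 higher, with backgrounds of 7.37% and 12.5%. At 1.5-fold, 0 members were lower (background 0.463%) and 0 higher (background 0.634%). Over the 32 members above the floor on each array, the log2 difference was under 0.1 in size for 16, beside 47.4% of all genes above it on each.

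Separate probe sets of one gene gave a scale for error within these arrays. Their log2 differences had a pooled SD of 0.15 over 1800 genes with 2 or more probe sets that passed the floor on each array. This SD compares different probe sets on the same RNA, so it also holds differences between the probe sets of a gene. It leaves out error that the probe sets of a gene share and the spread between cell preparations. Of the 32 members above the floor on each array, 20 had differences smaller than this SD. The share of all genes under it was not counted. In 14 members with further probe sets above the floor, these all had the same direction as the first in 10 and did not in 4 (Orc4, Cdt1, Mcm3 and Rrm1). The matching share over the 1800 genes was not counted, so neither count sets the members apart from other genes.

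**Figure D2:**
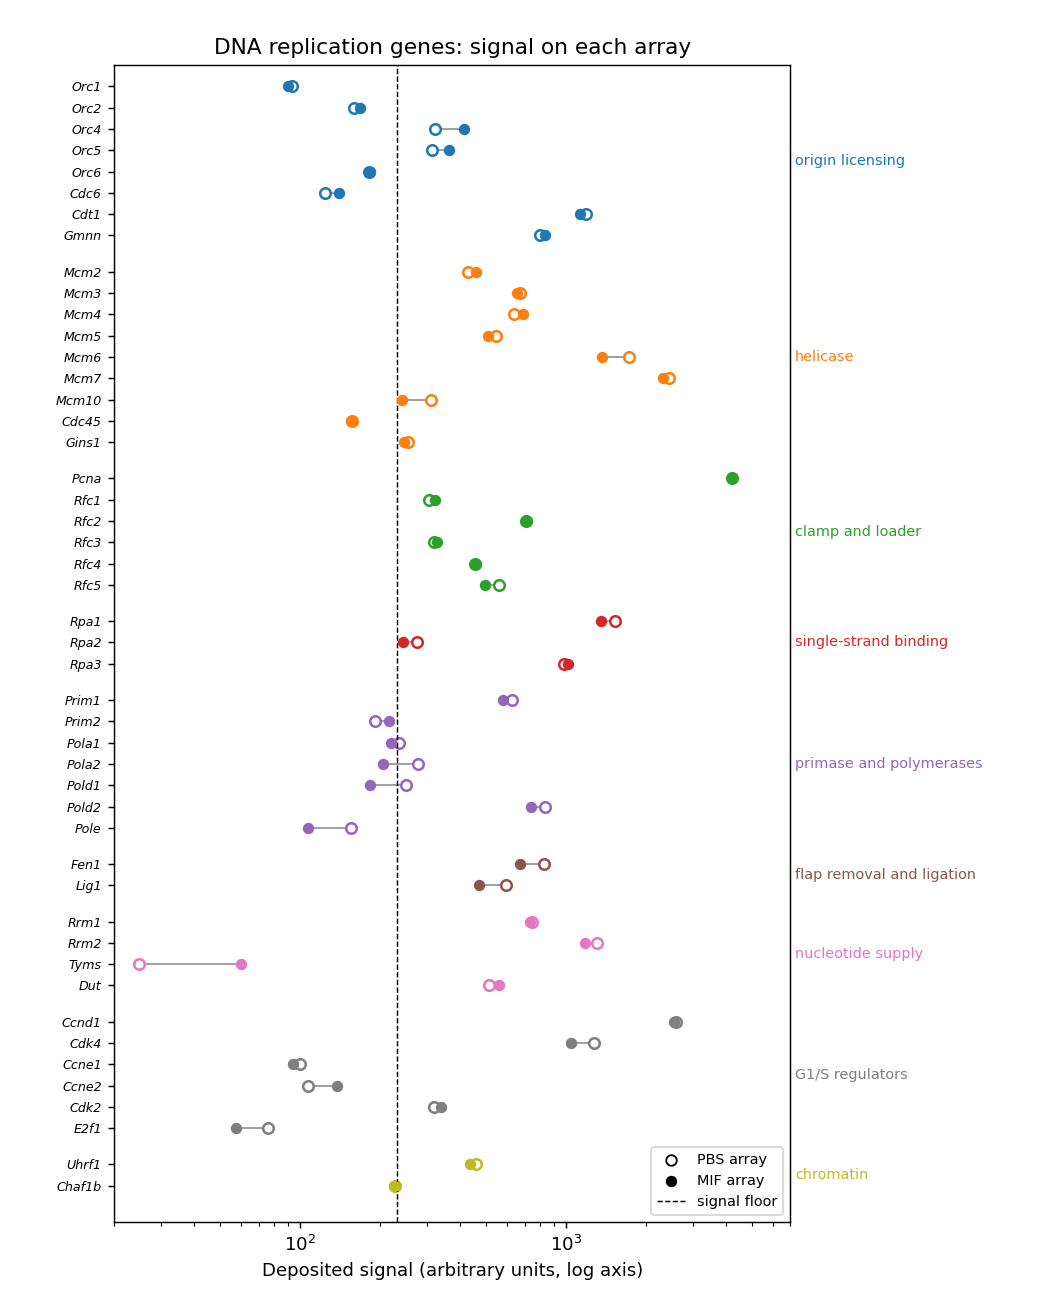
Deposited signal (x axis, arbitrary units, log scale) of the 47 DNA replication genes found in the table, by role, on the PBS array (open circles) and the MIF array (filled circles), 1 array each, with the floor of 232 as a dashed line. Most pairs of circles overlap or lie close together, and Mcm6, Mcm10, Lig1 and Orc4 are the members to the right of the floor that lie at least 0.322 apart on the log2 scale.

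The origin licensing genes were mostly level or slightly higher with MIF. Orc4, a subunit of the origin recognition complex, had a signal of 322 with PBS and 414 with MIF, 1.28-fold higher. A second probe set of Orc4, at 240 and 237, had a log2 difference of -0.02, so the 2 probe sets do not give the same answer, and the mean over all probe sets of the gene gave 0.18. Orc5, another subunit of that complex, was at 314 and 363, 1.16-fold higher, on its single probe set. Cdt1, which loads the helicase, was at 1189 and 1132, with log2 differences of -0.07 and 0.09 on its probe sets. Gmnn encodes geminin, the inhibitor that holds Cdt1 off once origins have fired, and was at 801 and 833. Orc1, Orc2, Orc6 and Cdc6 lay under the floor, from 89.9 to 183 over both arrays, and no difference is given for them.

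Among the helicase genes, Mcm6 differed from the rest of its hexamer on the brightest probe sets. The MCM2-7 proteins form one ring, and all 6 genes were above the floor on both arrays. Mcm6 was at 1730 with PBS and 1370 with MIF, 1.26-fold lower. Its second probe set, which can cross-hybridise, had a log2 difference of -0.18. On their brightest probe sets the other 5 lay between -0.09 and 0.11 on the log2 scale. With averaged probe sets Mcm6 was at -0.26, while Mcm2 and Mcm4 were at 0.29 and 0.24. Mcm3, Mcm5 and Mcm7 then lay between -0.10 and 0.06. Mcm7 was at 2442 and 2311, and its 4 probe sets were all lower, by -0.05 to -0.16. Mcm5 was at 544 and 510, a log2 difference of -0.09.

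Mcm2 and Mcm4 were higher, by small amounts on their brightest probe sets, at 429 and 460 for Mcm2 and at 638 and 690 for Mcm4. The second probe set of Mcm2, under the floor with PBS, was at 212 and 296, at least 1.28-fold higher, and the mean over both gave a log2 difference of 0.29. The second probe set of Mcm4, which can cross-hybridise, had a log2 difference of 0.38. Mcm3 was the least settled subunit. Its brightest probe set was at 672 and 655 (-0.04), while others had log2 differences of 0.14 and 0.50. The remaining one, under the floor with MIF, was at 287 and 221. The brightest Mcm3 probe set and the one at 0.50 can cross-hybridise.

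Mcm10, which links the helicase to the polymerases when origins fire, had the largest difference towards lower signal among the 32 members that passed the floor on each array. It went from 310 to 241, 1.28-fold lower, and the MIF value lay just above the floor. Gins1, a subunit of the GINS complex of the active helicase, was at 254 and 246. Cdc45, which forms the active helicase with MCM and GINS, lay under the floor at 156 and 155.

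The clamp gene had near-identical signals, and the loader genes differed little on their brightest probe sets. Pcna, the clamp that holds polymerases on DNA, was at 4230 and 4214, a log2 difference of -0.01. Of the 5 subunits of the RFC clamp loader, Rfc1, Rfc2, Rfc3 and Rfc4 had log2 differences between 0.01 and 0.08. Their dimmer probe sets spread more widely. That of Rfc3, at 235 and 286, had a log2 difference of 0.28. One of Rfc1 lay above the floor with MIF alone (225 and 277), and that of Rfc4 lay above it with PBS alone (266 and 229). Rfc5 was at 560 and 495, 1.13-fold lower. Rpa1 and Rpa2, the larger subunits of the complex that coats single-stranded DNA, were both 1.12-fold lower, at 1529 and 1360 for Rpa1 and at 275 and 245 for Rpa2. Rpa3, the smallest subunit, was at 983 and 1016.

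The primase and polymerase genes that could be assessed were all on the lower side, 3 of them as bounds set by the floor. Prim1, the catalytic primase subunit, was at 626 and 580, and its 2 probe sets had log2 differences of -0.11 and -0.13. Pold2, an accessory subunit of polymerase delta, was at 835 and 739, 1.13-fold lower. Pola2, of polymerase alpha, was at 277 and 204, which gives at least 1.20-fold lower at the floor. Pold1, the catalytic subunit of polymerase delta, was at 251 and 184 on a probe set that can cross-hybridise, at least 1.08-fold lower. Pola1, the catalytic subunit of polymerase alpha, was at 237 and 219, at least 1.02-fold lower. These 3 genes passed the floor through the PBS array alone, so they could only come out lower. Without a floor their log2 differences were -0.44 (Pola2), -0.45 (Pold1) and -0.11 (Pola1). Pole and Prim2 lay under the floor on both arrays, at 155 and 107 for Pole and at 191 and 215 for Prim2.

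The genes that finish the lagging strand were lower as well. Lig1, the ligase that seals Okazaki fragments, was at 597 with PBS and 473 with MIF, 1.26-fold lower, on a single probe set. Fen1, the nuclease that removes the flap ahead of ligation, was at 825 and 674, 1.22-fold lower, on a probe set that can cross-hybridise. Its second probe set, at 591 and 523, had a log2 difference of -0.18. Both Fen1 probe sets and the Lig1 probe set thus lie on the same side.

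Genes of nucleotide supply differed little. Rrm1, the large subunit of ribonucleotide reductase, was at 745 and 731. Rrm2, the small subunit whose level follows S phase, was at 1314 and 1184, on a probe set that can cross-hybridise. Its 3 probe sets had log2 differences from -0.03 to -0.15, the last from that probe set. Dut, which removes dUTP, was at 516 and 559, 1.08-fold higher. Tyms, which makes thymidylate, lay under the floor on its own probe set, at 24.7 and 59.8. A probe set shared with the pseudogene Tyms-ps, and so outside the set, was at 587 and 568.

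The regulators of the G1 to S transition gave a mixed picture. Cdk4, the kinase that cyclin D activates, was at 1272 and 1042, 1.22-fold lower, on a probe set that can cross-hybridise. Its 3 probe sets had log2 differences of -0.29, -0.20 and -0.16, the first from that probe set. Ccnd1, cyclin D1, was at 2603 and 2551 on its brightest probe set, a log2 difference of -0.03. The other probe sets of Ccnd1 were at 1463 and 1148 and at 904 and 742, with log2 differences of -0.35 and -0.28. The rule of the brightest probe set therefore gives the smallest of 3 differences for this gene, and the mean over its probe sets was -0.22. Cdk2, the partner of cyclin E, was at 318 and 340. The cyclin E genes Ccne1 and Ccne2 and the transcription factor gene E2f1 were under the floor. Uhrf1, which brings the maintenance methyltransferase to new DNA, was at 461 and 437, and Chaf1b, of the chromatin assembly factor CAF-1, lay just under the floor at 228 and 225.

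**Figure D3:**
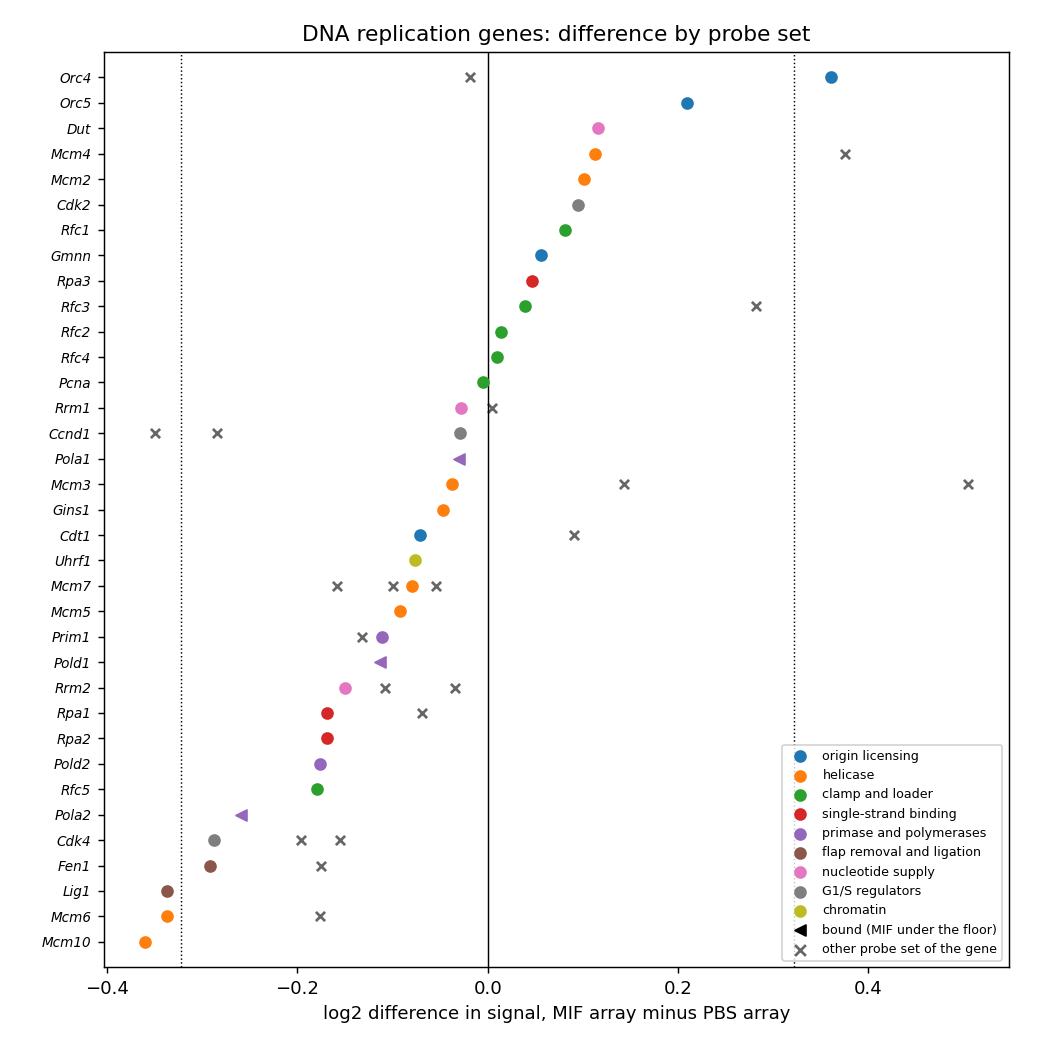
Log2 difference in signal between the MIF and PBS arrays (x axis) for the 35 assessed DNA replication genes, coloured by role, with crosses for its further probe sets where these passed the floor on each array, and dotted lines at a log2 difference of 0.322 in either direction. Triangles are bounds, where the MIF signal was under the floor. Mcm10, Mcm6 and Lig1 lie beyond the lower line and Orc4 beyond the upper one, and the crosses of Mcm3 and Ccnd1 lie far from their circles.

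The E2F letters did not divide the members by the size of their difference. The CHR and CCAAT letters were not compared in this way. The 11 assessed members with E2F letters at any listed start had a median log2 difference of -0.08, from -0.34 (Mcm6) to 0.09 (Cdk2). The 19 without them had a median of -0.11, from -0.36 (Mcm10) to 0.36 (Orc4). The ranges of the groups overlap over most of their length. Of the 11 with E2F letters 9 were lower, and of the 19 without them 12 were (background 53.3%). Pola1 and Pold1 in the first group and Pola2 in the second could only come out lower.

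A further list of 66 genes held 51 genes of the table, of which 38 were assessed, all above the floor on both arrays. It mixed replication genes with regulators of the cell cycle, among them E2F and RB family genes, D cyclins and inhibitors of cyclin-dependent kinases. Its values are therefore not those of the replication machinery alone. The median log2 difference of the 38 was -0.0014, with 19 lower and 19 higher. Past the threshold of 0.322, 4 of the 38 were lower (background 3.53%) and 1 was higher (background 4.56%). The lower genes were Pole3 and Pole2, subunits of polymerase epsilon, and Dck and Tk1, kinases that salvage nucleosides. Pole3 was at 690 and 499, 1.38-fold lower, with a log2 difference of -0.13 on a second probe set. Dck was at 404 and 300, 1.35-fold lower, and its other probe sets lay under the floor. Tk1 was at 655 and 508, 1.29-fold lower, and Pole2 at 351 and 279, 1.26-fold lower. E2f5, an E2F factor that acts mainly as a repressor, was the one higher, at 540 and 711 (1.32-fold), with a log2 difference of 0.07 on a second probe set.

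With the polymerase and primase genes of both lists joined, a grouping made after their values were seen, 9 of 10 assessed genes were lower (background 53.3%). Of the 10, Pola1, Pola2 and Pold1 could only come out lower, and 6 of the other 7 were lower. The exception was Pold3, a further subunit of polymerase delta, at 255 and 289. Genes of dNTP metabolism joined in the same way had 6 of 7 lower (background 53.3%), with Dut as the exception on the brightest probe sets. Some of the lower genes had further probe sets on the other side. Shmt1 was at -0.06 on the log2 scale, with 0.09, 0.28 and 0.49 on its others. Samhd1 was at -0.23 and -0.28, with 0.63 on another and at least 0.92 on one under the floor with PBS. Rrm1 was at -0.03 and 0.0045. The 3 D cyclins did not share a direction. Ccnd2, cyclin D2, was at 2242 with PBS and 2713 with MIF, 1.21-fold higher. All 5 of its probe sets above the floor were higher, by 0.27 to 0.65 on the log2 scale, while all 3 of Ccnd1 were lower. Ccnd3, cyclin D3, was at 481 and 502, a log2 difference of 0.06.

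Broad markers of cycling cells were slightly lower. Mki67, which encodes the Ki-67 antigen, was at 2012 and 1803, a log2 difference of -0.16. Ccna2, the cyclin of S and G2 phase, was at 1063 and 961 (-0.15), and Top2a, the topoisomerase that untangles copied chromosomes, at 1696 and 1418 (-0.26). Cdkn1a, the p21 inhibitor of cyclin-dependent kinases, was at 3425 and 2834 (-0.27), with 0.14 on a second probe set.

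The mitosis genes stood lower than the replication genes on the same arrays. Of 27 assessed mitosis genes, 25 were lower (background 53.3%), with a median log2 difference of -0.32, and 12 were lower by at least 0.322 (background 3.53%), where 3 of the 35 replication members were. Aurkb and Spc25 passed the floor through the PBS array alone and could only come out lower. Over the 25 mitosis genes that passed it on each array, 23 were lower, 10 of them past the threshold, with a median of -0.30. The largest differences were in Prc1, a spindle midzone protein (-0.59), Cenpa, the centromeric histone (-0.48), and Cdc20, which activates the anaphase-promoting complex (-0.46). The brightest probe set of Cdc20 can cross-hybridise. Second probe sets of Prc1 (-0.53) and Cdc20 (-0.54) were lower too, while those of Cks2 (-0.06) and Racgap1 (-0.14) differed less. One of Hmmr, above the floor with MIF alone, was higher, at 200 and 277. The mitosis values are given for the main processing alone. With 1 array per group the gap between the lists could not be tested. In bulk RNA, fewer cycling cells and less RNA per cycling cell cannot be told apart.

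**Figure D4:**
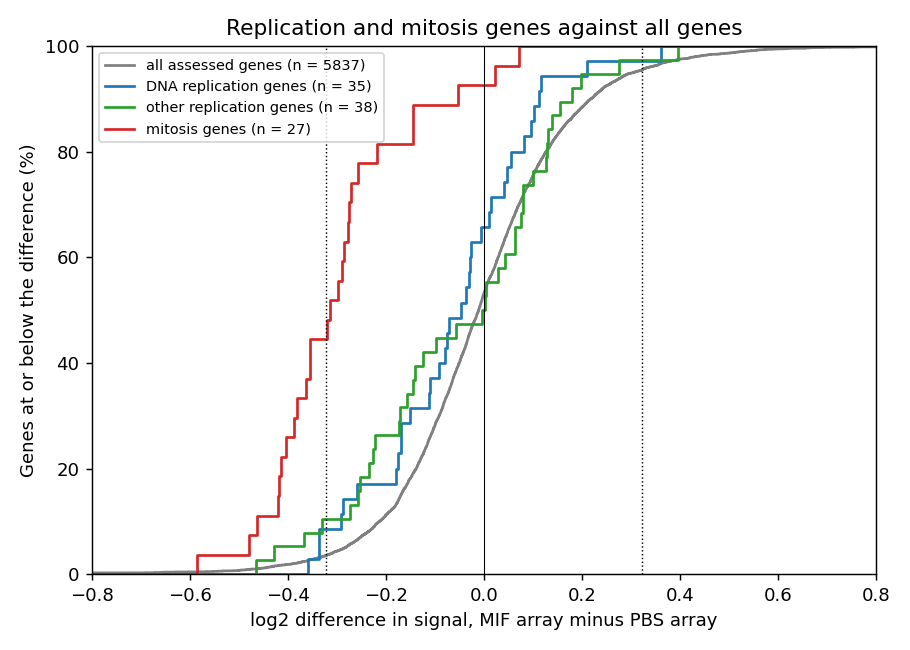
Cumulative percent of genes (y axis) at or below each log2 difference between the MIF and PBS arrays (x axis), for all 5837 assessed genes, the 35 DNA replication genes, 38 other replication genes and 27 mitosis genes, with dotted lines at a log2 difference of 0.322 in either direction. At 0 the curve of the DNA replication genes stands at 65.7% and that of all genes at 53.3%. Of the 38 other replication genes, a list that also holds cell cycle regulators, 19 are lower. At the lower dotted line both replication curves lie above that of all genes. The curve of the mitosis genes is shifted to a median of -0.32.

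The arrays also differed in markers of cells. Of 12 colon epithelial markers, 11 were in the table and all 11 were above the floor on both arrays, with log2 differences from -0.23 to 0.21 and Epcam at 8889 and 8830. All 5 crypt stem and progenitor markers in the table were higher with MIF (background 46.7%), among them Smoc2 (257 and 331) and Axin2 (278 and 334). Lgr5 and Ascl2 of these passed the floor through the MIF array alone, so they could only come out higher. The summed signal of 6 lymphocyte markers was 1690 with PBS and 917 with MIF, of which Gzma and Gzmb were above the floor and Ptprc, Cd3g, Cd8a and Nkg7 under it. That of 7 fibroblast markers was 751 and 1877, with Col1a1, Col1a2, Lum and Pdgfra under the floor. Col3a1 and Vim passed it through the MIF array alone, and Dcn on each array. Of 5 myeloid markers, summed at 1692 and 1749, Cd14 passed the floor on each array, and the single endothelial and smooth muscle markers in the table (Cdh5 and Acta2) were under it. As a measure of RNA integrity, the 3′ probe set of the beta-actin control was 1.31 times its 5′ probe set with PBS and 1.33 times with MIF. The same ratio was 0.80 on each array for the Gapdh control. For the transferrin receptor control it was higher, at 2.34 with PBS and 2.23 with MIF. The part of these cell markers in the differences of the replication genes was not tested.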

How the data were processed

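Per the labels, biotinylated cRNA was made from Trizol-extracted total RNA by the standard Affymetrix protocol. Each deposited value is a probe set's intensity as the authors processed it, linear in scale to judge by the values. The sources used here name no method of probe summary, background correction or scaling. Of 15340 probe sets, 61 controls were left out, 14049 carried 1 gene symbol, 490 several and 740 none. Column medians were 336 and 345, a log2 shift of 0.04, so values were not rescaled. Symbols were updated by Entrez ID through the GRCm38.p6 gene table, for names only.

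Signals were floored at the 40th percentile, and log2 differences are MIF minus PBS. A gene under the floor on 1 array gives a bound ("at least"). With 1 array per group no test, SD between samples or p-value was computed. Precision is limited by the number of arrays. The members, gene lists and the threshold of 0.322 were chosen with earlier results of these data known. Members above the floor were named, and of the other replication genes the 8 with the largest differences (Tk1 and Top2a among them) plus Ccna2 and Mki67, and of the mitosis genes the 3 largest. Pold3 and the cell markers named were picked with their values in view and do not follow this rule. Roles and the joined groups were assigned after the values were seen. Promoters were matched by symbol. The steps were tested on simulated data. The 7 alternatives were quantile normalization, other floors (20th percentile, 60th percentile, none), the mean of probe sets, leaving out _x_at and _s_at probe sets, and removing a loess trend (span 0.3). The scripts ran in Python 3.11.15 with statsmodels 0.14.6 for the loess, pandas 2.3.3, numpy 2.4.6 and, for plots, matplotlib 3.10.9.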

Additional observations from a re-analysis of the deposited data

How the results depend on the processing

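The median log2 difference of the replication members stayed below 0 under all 7 alternatives, from -0.03 without _x_at and _s_at probe sets to -0.09 with averaged probe sets. That of the other replication genes ran from -0.02 to 0.0039. Counts past the threshold of 0.322 depended on the floor and on the averaging of probe sets. Members lower by that much numbered 6 under a floor at the 20th percentile, 1 under one at the 60th and 7 without a floor, where 4.69%, 2.69% and 7.37% of all genes were. Members higher by that much numbered 2, 0 and 3 under these floors (7.13%, 3.24% and 12.5% of all genes), 0 after quantile normalization (3.72%) and 0 with averaged probe sets (4.67%). The number assessed was 45, 21 and 47 under the 3 floors. Orc4, the higher member, had a log2 difference of 0.321 after quantile normalization, just under the threshold, and 0.18 with averaged probe sets. With averaged probe sets 2 members were past the threshold on the lower side (3.23% of all genes), and Mcm6, at -0.26, was not. Under the floor at the 60th percentile Lig1 gave a bound of -0.26, also short of the threshold. Other replication genes past the threshold on the lower side numbered 2 under a floor at the 60th percentile, where fewer genes were assessed. Single members whose value shifted by more than 0.15 (the probe set SD) were Orc4, Mcm2 (0.29) and Ccnd1 (-0.22) with averaged probe sets, Mcm3 (0.14) without _x_at and _s_at probe sets, and Pola2 and Pold1 (-0.44 and -0.45) under the lower floors, where they were no longer bounds. No paired analysis was possible because each group has 1 array. Genes near the floor are limited by signal over background.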
